A study of Homo sapiens with 6 samples.

Results

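The mammary stem cell markers examined here are 10 genes used to recognize or isolate breast cells with stem or progenitor features, namely SOX9, KLF4, CD24, ALDH1A1, ALDH1A3, PROCR, LGR6, BMI1, NES and PROM1. They were matched by gene symbol, and of several transcript clusters of a gene (the probe groups that the array summarizes to 1 value) the brightest on average was to stand for it. Of the 10 genes, 6 were measured under their symbol, SOX9, KLF4, CD24, LGR6, NES and PROM1, each by 1 transcript cluster, out of 14884 genes with a symbol and 53617 transcript clusters. ALDH1A1, ALDH1A3, PROCR and BMI1 are not among the symbols of the platform table used here and were not analysed, so the comparison with the ALDH genes could not be made.

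SUM159 is a line of triple negative BC cells, grown in medium with insulin and hydrocortisone. The control group holds 3 cultures transduced with an empty lentiviral vector, and the miR-1287-5p overexpression group holds 3 cultures transduced with a lentivirus for mature miR-1287-5p. Per the methods, both vectors carry GFP and both populations were selected with puromycin, and neither the methods nor the labels say whether the cultures of a group go back to separate transductions. If they do not, the p-values measure only the spread between cultures of 1 transduced population. Total RNA of each culture was measured on 1 Affymetrix Human Gene 2.0 ST array. Values are log2 signals made by the authors with RMA, on which a difference of 1 is a doubling, and the number of arrays limits their precision.

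Cells that form mammospheres or tumors at low number are often sorted as CD44 high and CD24 low, or by the aldehyde dehydrogenase activity to which ALDH1A1 and ALDH1A3 contribute. Other markers are transcription factors. SOX9 together with SNAI2 (Slug) can turn differentiated mouse mammary cells into stem-like cells, and KLF4 is one of the factors that reprogram differentiated cells to pluripotency. These markers do not label 1 common cell, and a gene may be a marker in the mouse gland without being one in a human cell line.

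The overexpressed miRNA is shown first, because its expression is the difference that the design intended between the groups. The groups are also separately transduced and selected populations, and a difference between these populations cannot be told apart from one made by the miRNA. The miRNA is encoded on the minus strand of chromosome 10 (RefSeq, GRCh38.p14, chr10:98395271-98395292). The capitals mark its seed, bases 2 to 8 from the 5′ end, with which a miRNA pairs to its targets.
hsa-miR-1287-5p: uGCUGGAUcagugguucgaguc

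The promoters of KLF4 and CD24 follow, because these 2 members had separated groups in opposite directions (values below). The groups of SOX9 did not overlap either, but the promoter windows used here include none for SOX9. Each window runs from 250 bases before to 50 bases after a transcription start on the minus strand, as RefSeq gives it for GRCh38.p14 (chr9:107489720-107490019 for KLF4 and chr6:106975578-106975877 for the outermost of 3 CD24 windows). The capitals mark the letters CACCC, the core that KLF factors bind, and CCGCCC, the GC box, searched on both strands.
KLF4: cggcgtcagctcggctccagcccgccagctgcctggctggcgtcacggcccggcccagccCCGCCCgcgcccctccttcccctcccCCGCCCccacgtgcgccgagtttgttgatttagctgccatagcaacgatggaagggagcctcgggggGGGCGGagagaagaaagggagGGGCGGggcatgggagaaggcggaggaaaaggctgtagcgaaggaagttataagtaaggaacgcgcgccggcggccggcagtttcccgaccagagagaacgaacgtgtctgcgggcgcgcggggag
CD24: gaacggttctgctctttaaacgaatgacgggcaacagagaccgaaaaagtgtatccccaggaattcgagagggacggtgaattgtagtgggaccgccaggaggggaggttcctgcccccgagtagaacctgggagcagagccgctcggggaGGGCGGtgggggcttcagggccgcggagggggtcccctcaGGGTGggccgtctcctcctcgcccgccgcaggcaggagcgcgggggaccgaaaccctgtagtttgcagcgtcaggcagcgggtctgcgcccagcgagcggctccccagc

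The KLF4 window held 4 GC boxes and 0 CACCC matches, and the CD24 window held 1 of each, with no overlap between them. Over all 35116 RefSeq promoter windows of this length, 45.0% held a GC box and 59.9% a CACCC match, so these letters are common. The SOX core AACAAT, present in 10.1% of all windows, was in neither, and the TATA box TATAAA (11.5% of all windows) was in neither. Among the 17 windows of the 9 members that the promoter table holds, AACAAT occurred in 1, the outermost window of LGR6. A match is a description of letters and not a bound site.

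Array medians lay between 4.33 and 4.42. RMA includes a quantile normalization over all arrays, which draws the medians together, so they do not show that the arrays were alike. Pairs of arrays correlated at an r of 0.970 to 0.988 (Pearson, across transcript clusters, which are not replicates). The first principal component was taken over the 26808 transcript clusters with a mean signal above the median and held 55.7% of their variance. On it the groups overlapped. The lowest and the highest array were both controls, replicate 1 at −41.5 and replicate 2 at 60.6, with overexpression arrays between −36.0 and 8.10. The median of all transcript clusters, 4.37, serves below as a mark under which background limits a fold change. The mesenchymal markers of the line lay above it, with mean signals of 11.3 for AXL, 10.9 for VIM and 9.15 for CD44, while ESR1 (4.22) and PGR (3.63) lay below it, as did 4 of the 7 measured luminal markers in all. TWIST1 (4.09), fixed as a mesenchymal marker, also lay below it.

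SOX9, a high mobility group transcription factor, had log2 signals of 6.12, 5.94 and 6.34 in control replicates 1 to 3 and of 7.05, 6.37 and 6.89 in overexpression replicates 1 to 3. The groups did not overlap, but overexpression replicate 2 exceeded control replicate 3 by only 0.031. The means were 6.13 ± 0.20 and 6.77 ± 0.35 (SD, n = 3 arrays per group). The log2 fold change was 0.64 (95% interval 0.15 to 1.12, standard error 0.21, 1.55-fold), at a limma adjusted p = 0.871 over all transcript clusters. Of the 53617 transcript clusters, 449 had a larger positive fold change.

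KLF4, a zinc finger transcription factor, had log2 signals of 6.30, 6.18 and 6.34 in control replicates 1 to 3 and of 6.62, 6.60 and 6.70 in overexpression replicates 1 to 3. The groups did not overlap and were 0.26 apart at their nearest arrays. The means were 6.27 ± 0.085 and 6.64 ± 0.055 (SD, n = 3 arrays per group), and the spread within groups was smaller than that of most transcript clusters (percentile 3.63). The log2 fold change of KLF4 was 0.37 (95% interval 0.083 to 0.66, standard error 0.12, 1.29-fold), at a limma adjusted p = 0.871. KLF4 thus had a smaller fold change than SOX9 but a wider gap between the groups.

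CD24, a small glycoprotein held to the outer membrane by a lipid anchor, had log2 signals of 7.80, 8.04 and 8.01 in control replicates 1 to 3. In overexpression replicates 1 to 3 they were 7.30, 7.27 and 6.96. The highest overexpression value was 0.50 below the lowest control value. The means were 7.95 ± 0.13 and 7.18 ± 0.18 (SD, n = 3 arrays per group). The log2 fold change was −0.77 (95% interval −1.12 to −0.42, standard error 0.15, 1.71-fold), at a limma adjusted p = 0.765, and CD24 ranked 82 of 53617 by its p. The study lists CD24 among the genes it picked as lower on these same arrays, so its direction is not independent evidence. RefSeq lists several CD24 pseudogenes, and how the probes divide signal between CD24 and such copies is not given in the sources used here. In RNA of a whole culture, fewer cells with CD24 and less CD24 RNA per cell cannot be told apart.

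**Figure D1:**
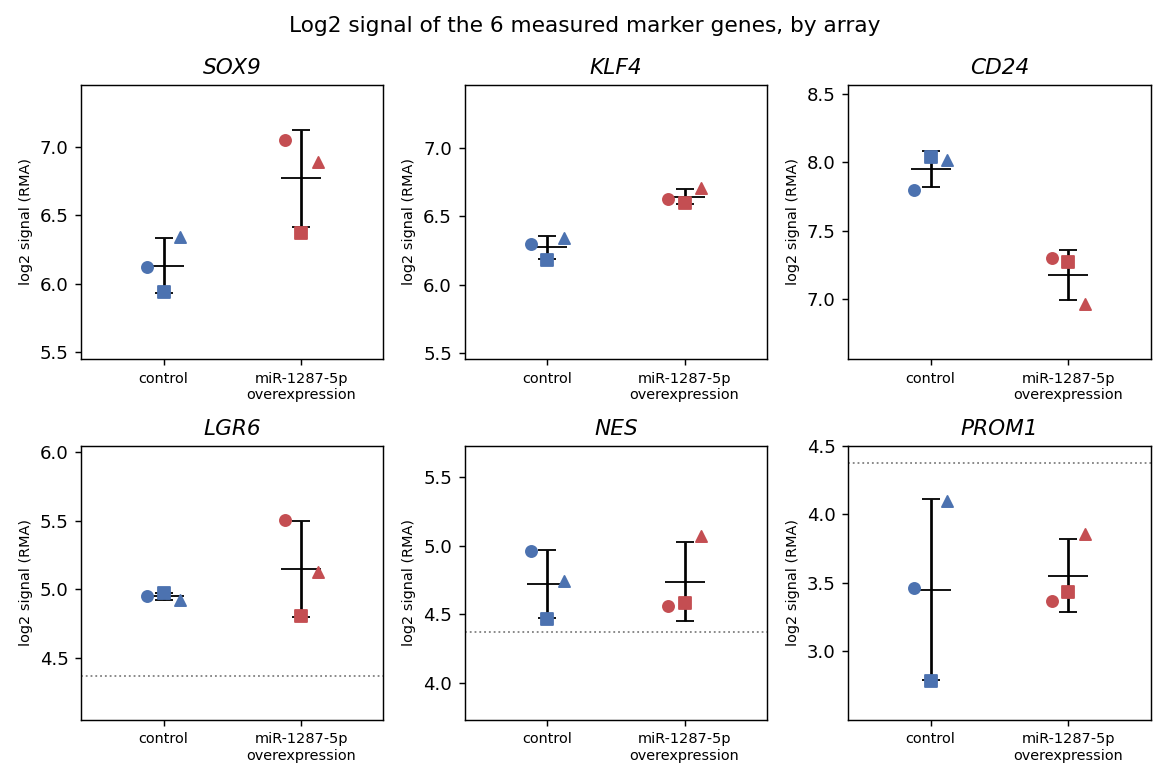
Log2 signal (vertical axes, RMA, each spanning 2 units) of the 6 measured marker genes in 3 control (blue) and 3 miR-1287-5p overexpression (red) arrays, with circle, square and triangle for replicates 1, 2 and 3, the mean as a horizontal line and the SD as a bar. The dotted line is the median of all transcript clusters (4.37), and SOX9, KLF4 and CD24 are the genes whose groups do not overlap.

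The remaining surface proteins showed no separation of the groups. LGR6, a receptor for R-spondins that marks progenitor cells in the mouse mammary gland, had log2 signals of 4.95, 4.97 and 4.93 in control replicates 1 to 3 and of 5.51, 4.81 and 5.13 in overexpression replicates 1 to 3. Control arrays lay within a narrow range, while overexpression replicate 2 lay below them and the other two above. Its log2 fold change was 0.20 (95% interval −0.24 to 0.64, limma adjusted p = 0.881), 0.020 without overexpression replicate 1 and 0.37 without overexpression replicate 2. PROM1 (CD133), a pentaspan membrane protein, had log2 signals of 3.47, 2.78 and 4.10 in control replicates 1 to 3 and of 3.37, 3.44 and 3.86 in overexpression replicates 1 to 3. All 6 values lay below the median of all transcript clusters. The log2 fold change of PROM1 was 0.10 (95% interval −0.66 to 0.87, limma adjusted p = 0.958), an interval that spans more than 1.5-fold in either direction.

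NES encodes nestin, an intermediate filament protein of neural and other progenitor cells. Its log2 signals were 4.96, 4.46 and 4.74 in control replicates 1 to 3 and 4.56, 4.58 and 5.07 in overexpression replicates 1 to 3, with overlapping groups. The log2 fold change was 0.013 (95% interval −0.45 to 0.48, limma adjusted p = 0.990). A 1.5-fold difference of signal in either direction, 0.585 on the log2 scale, lies outside this interval. The mean signal of NES, 4.73, was only a little above the mark of 4.37 under which background limits a fold change. The interval therefore bounds the array signal and does not exclude a larger difference in NES RNA.

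Of the 6 measured members, 0 changed at an adjusted p under 0.05 by limma, where 0.00373% of all transcript clusters did, and 0 by the methods' t-test. At an unadjusted p under 0.05 by limma, SOX9 and KLF4 were the 2 higher members and CD24 the 1 lower member, where 2.96% of all transcript clusters were higher and 2.44% lower, and by the methods' t-test 2 members passed, KLF4 and CD24, where 5.73% of all transcript clusters did. At the thresholds of the study's list, at least 1.5-fold and an unadjusted p under 0.05, CD24 was the 1 lower member, where 1.01% of transcript clusters were, and SOX9 the 1 higher member, where 0.694% were. Overexpression arrays lay above all control arrays for 2 members and for 6.88% of transcript clusters, and below all control arrays for 1 member and for 4.33%. For each of these 3 genes the exact permutation test over arrays (two-sided) gave p = 0.1, and a design of 3 against 3 can give no smaller value. SOX9 did not meet the 1.5-fold threshold without control replicate 2 (log2 fold change 0.54), overexpression replicate 1 (0.50) or overexpression replicate 3 (0.577, where 1.5-fold is 0.585). The members were chosen with earlier results of these data known. Their counts beside the shares of all transcript clusters are therefore a description and no test of the members as a set.

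SOX9 and KLF4 thus lay on the opposite side of 0 from CD24. The other measured surface members, LGR6 (log2 fold change 0.20) and PROM1 (0.10), had estimates above 0 with intervals that include 0. The intervals of SOX9 (0.15 to 1.12) and KLF4 (0.083 to 0.66) lay above 0 and that of CD24 (−1.12 to −0.42) below it, each without adjustment for the number of transcript clusters. When any 1 array was left out, the log2 fold change stayed between 0.50 and 0.84 for SOX9, between 0.32 and 0.41 for KLF4, and between −0.85 and −0.67 for CD24. With groups that do not overlap, leaving out an array can change the size of a fold change but not its direction. The difference between the genes' fold changes was not tested.

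**Figure D2:**
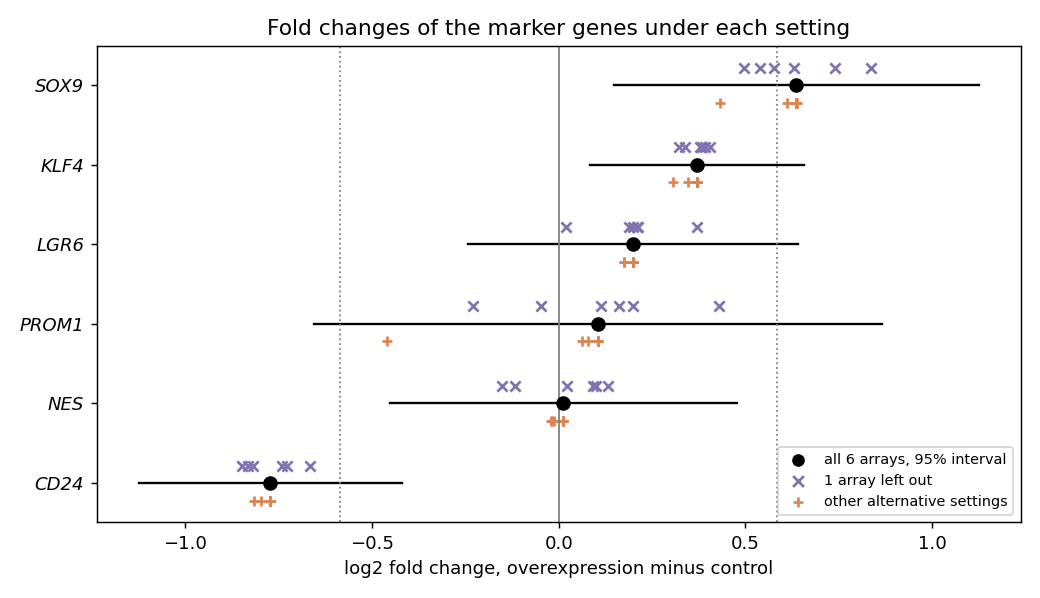
Log2 fold change (horizontal axis, overexpression minus control) of the 6 measured marker genes, with the estimate from all 6 arrays and its 95% interval in black, estimates with 1 array left out as purple crosses and other settings as orange plus signs. Dotted lines mark 1.5-fold. SOX9 and KLF4 stay above 0 and CD24 below it in every setting, which their separated groups fix in advance where arrays are left out or weighted. NES and PROM1, whose groups overlap, change sign in some settings.

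Related genes were read from 10 lists of 148 genes that follow the members' families and partners, of which 97 have a symbol here. By limma 0 of the 97 changed at an adjusted p under 0.05 and 3 had an unadjusted p under 0.05 (1 higher, 2 lower), against 0 and 7 by the methods' t-test. Over all transcript clusters the unadjusted shares were 2.96% higher and 2.44% lower by limma and 5.73% in both directions by the methods' t-test, and the share among the 97 genes was no higher by limma. The median log2 fold change of the 97 genes was 0.032, beside 0.011 over the 14884 genes with a symbol. Overexpression arrays lay above all control arrays for 6 of the 97 genes and below them all for 5. Of all transcript clusters 6.88% lay above and 4.33% below. Such separations are named in the following paragraphs for some of these genes only.

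SOX factors bind DNA through a shared high mobility group domain and take part in many lineage decisions. All 17 listed SOX genes beside SOX9 were measured, 11 with a log2 fold change above 0 and 6 below, with a median of 0.094 and a range of −0.27 to 0.33. SOX9, at 0.64, had a larger estimate than these relatives, but its standard error overlapped those of SOX18, SOX11 and SOX14. The difference was not tested. The smallest p values belonged to SOX15 (0.27), SOX11 (0.31), SOX18 (0.33) and SOX14 (0.30), each given as a log2 fold change and each at a limma adjusted p = 0.871. The pluripotency factor SOX2 had a mean signal of 3.83 and a log2 fold change of −0.00031, and SOX4, a factor linked to TGF-beta responses, −0.27.

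KLF factors are zinc finger proteins that bind GC-rich and CACCC sequences like the GC boxes shown for KLF4. Of the 16 measured KLF genes beside KLF4, 6 had a log2 fold change above 0 and 10 below, with a median of −0.11 and a range of −0.28 to 0.36. KLF4, at 0.37, lay just above KLF2 (0.36), an endothelial and lymphocyte regulator. KLF1, a red cell factor, had 0.32, KLF11 −0.28 and KLF7 −0.22, each at a limma adjusted p = 0.871. KLF5, which acts in proliferating epithelial cells, had 0.060.

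**Figure D3:**
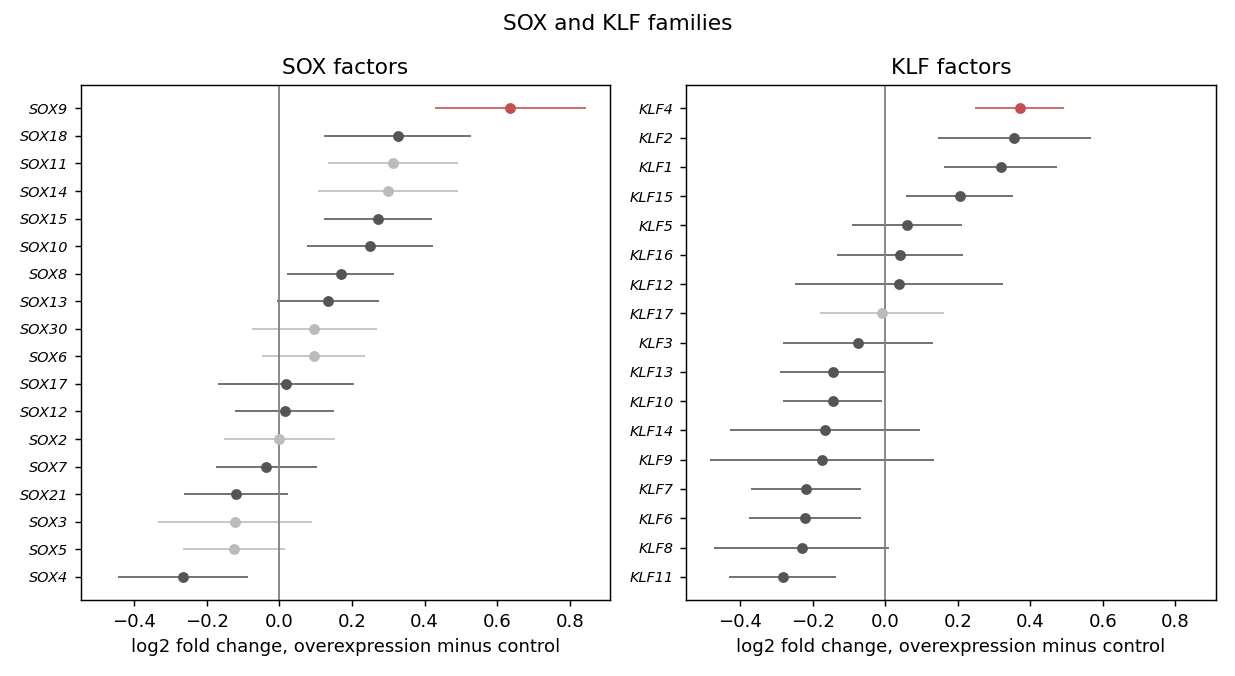
Log2 fold change (horizontal axes, overexpression minus control, bars are standard errors) of 18 SOX genes and 17 KLF genes, sorted within each family, with SOX9 and KLF4 in red and genes whose mean signal is at or below the median of all transcript clusters in light grey. SOX9 (0.64) has the largest estimate of its family with a bar that overlaps those of SOX18 (0.33), SOX11 (0.31) and SOX14 (0.30). KLF4 (0.37) lies beside KLF2 (0.36).

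Among other transcription factors tied to stem cells, 13 of 16 were measured, 10 above 0 and 3 below, and the median log2 fold change was 0.11. SNAI2, the partner of SOX9 in mouse mammary cells, had control and overexpression means of 11.2 and 11.0 and a log2 fold change of −0.15 (limma adjusted p = 0.881). MYC, a reprogramming factor like KLF4, had −0.017, and POU5F1 and NANOG, which maintain pluripotency, had −0.0077 and 0.25. NANOG had a mean signal of 1.74, far below the median of all transcript clusters. The smallest p belonged to the receptor NOTCH1, with a log2 fold change of 0.23 and overexpression arrays above all control arrays (limma adjusted p = 0.871). LIN28B and LIN28A, RNA-binding proteins of early embryonic cells, had 0.31 and 0.19 from mean signals below that median.

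Of the other stem and progenitor surface proteins, 12 of 16 were measured, 6 above 0 and 6 below, and the median log2 fold change was −0.032. CD44, the hyaluronan receptor read together with CD24, had log2 signals of 8.83, 9.41 and 9.13 in control replicates 1 to 3 and of 9.03, 9.07 and 9.43 in overexpression replicates 1 to 3. The groups overlapped, and the log2 fold change of CD44 was 0.055 (95% interval −0.40 to 0.51, limma adjusted p = 0.964). EPCAM, an epithelial adhesion molecule used as a partner marker in sorting, had 0.40 from a control mean of 4.14, below the median of all transcript clusters. The glycoprotein CDCP1 had −0.19 with overexpression arrays below all control arrays, PROM2, the paralog of PROM1, −0.19, and the tetraspanin CD9 −0.12. Each of these 4 genes had limma adjusted p values of 0.871 to 0.886.

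LGR receptors bind R-spondins and take the ubiquitin ligases RNF43 and ZNRF3 off the Wnt receptor. All 8 listed genes were measured, and RNF43 was the 1 gene among the 97 that was at least 1.5-fold different at an unadjusted p under 0.05 by limma. RNF43 had log2 signals of 6.39, 6.41 and 6.43 in control replicates 1 to 3 and of 5.64, 5.74 and 5.27 in overexpression replicates 1 to 3, with no overlap. Its log2 fold change was −0.86 (standard error 0.16, limma adjusted p = 0.690). RNF43 is also among the genes the study picked as lower on these arrays. ZNRF3 had 0.032, LGR4 −0.24 and LGR5, at a mean signal of 2.92, −0.0024. The ligand RSPO2 had 0.30, with overexpression arrays above all control arrays, and RSPO4 0.17, at limma adjusted p values of 0.871 and 0.877.

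For the members without a symbol here, the listed partners give the measured surroundings. Of 17 other aldehyde dehydrogenases only ALDH2, the mitochondrial acetaldehyde enzyme, has a symbol here, with a log2 fold change of 0.011. Retinoic acid, the product of ALDH1A enzymes, is made from retinal, and RDH10, which forms that retinal, had log2 signals of 6.04, 6.31 and 6.34 in control replicates 1 to 3. In overexpression replicates 1 to 3 RDH10 had 5.71, 5.93 and 5.39, below all control arrays. Its log2 fold change was −0.55 (standard error 0.18, limma adjusted p = 0.871), while the retinol importer STRA6 had 0.23, the reductase DHRS3 0.16 and the binding protein CRABP2 0.12.

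BMI1 belongs to the Polycomb complexes, which silence genes through histone marks. Of 22 listed partners 16 were measured, 7 above 0 and 9 below, the median log2 fold change was −0.047, and 0 had an unadjusted p under 0.05 by limma. PHC3 had −0.40, PCGF6, a relative of BMI1, −0.34, and RING1 0.24, and CDKN2A, a classical BMI1 target, had 0.24 from a mean signal of 4.24, each at a limma adjusted p = 0.871. PROCR binds protein C, and PROC, the gene of protein C itself, had a log2 fold change of 0.39 at low signal (control mean 4.36, limma adjusted p = 0.871). TFPI, an inhibitor of the clotting start, had −0.62, past 1.5-fold but with a control SD of 1.04 and overlapping groups, PROS1 −0.36 and the thrombin receptor F2R −0.096.

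Nestin assembles with vimentin. Of 10 other intermediate filament genes 5 were measured, with a median log2 fold change of 0.026. The nuclear lamin gene LMNA had 0.22 with overexpression arrays above all control arrays, and VIM −0.11 (its 3 transcript clusters ranged from −0.11 to 0.25). DES had 0.19 (its 2 transcript clusters ranged from 0.19 to 0.30) and GFAP −0.10. LMNA, VIM, DES and GFAP had limma adjusted p values of 0.871 to 0.935.

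**Figure D4:**
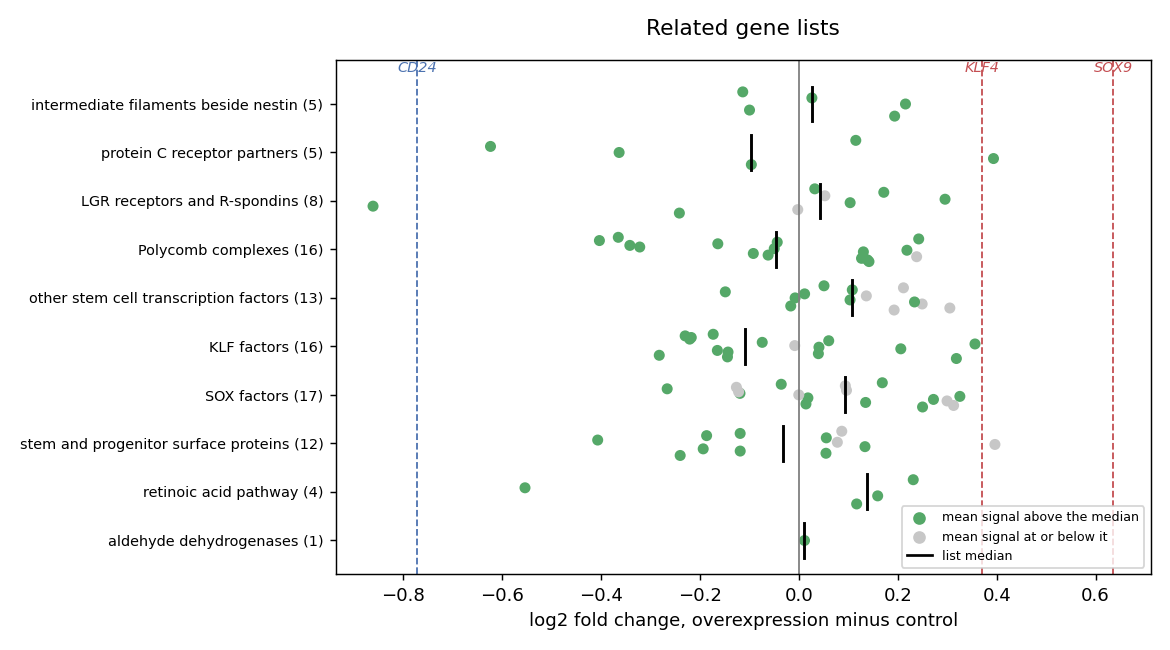
Log2 fold change (horizontal axis, overexpression minus control) of 97 genes in 10 lists, with the number measured in brackets, a black bar at each list's median, and grey points where the mean signal is at or below the median of all transcript clusters. Dashed lines mark SOX9 (0.64), KLF4 (0.37) and CD24 (−0.77), and RNF43 (−0.86) is the gene that lies lower than CD24.

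The genes whose pattern over the 6 arrays was most like that of 3 members were taken from 10347 brighter genes, as a description that includes the difference between the groups. For CD24 they were the lactate dehydrogenase LDHA (Pearson's r = 0.999), DYM (0.992) and PCOLCE2 (0.990), with log2 fold changes of −0.19, −0.53 and −0.51, and 246 genes had an r over 0.9. For KLF4 they were TRAPPC4 (0.992), TOMM7 (0.988) and DMBT1 (0.986), and 203 genes had an r over 0.9. For SOX9 they were ENTPD8 (0.980), MIR933 (0.974) and OPTC (0.972), and 77 genes had an r over 0.9.

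Markers of cells that a breast cancer culture should lack were read in the same fit. Of the leukocyte list 3 of 6 genes were measured, CD14, LYZ and CD68, and their mean log2 signal was 5.08 to 5.31 in control arrays and 5.43 to 5.49 in overexpression arrays. Overexpression arrays lay above all control arrays in this mean of log2 signals, as they did for 6.88% of single transcript clusters. CD14 had a log2 fold change of 0.46 with overexpression arrays above all control arrays. LYZ had 0.19, and its 2 transcript clusters ranged from −0.011 to 0.19. CD14 (control mean 3.33) and LYZ (2.84) lay below the median of all transcript clusters. CD68 had 0.070 at a control mean of 9.47. The defining markers PTPRC and CD3E have no symbol here. The endothelial markers (3 of 4 measured) had mean log2 signals of 4.11 to 4.37 in control arrays and of 4.08 to 4.44 in overexpression arrays, and of these VWF (log2 fold change 0.27) and KDR (0.34) lay above all control arrays while PECAM1 had −0.40. The adipocyte markers (2 of 4 measured) had 3.73 to 3.81 and 3.61 to 3.91. Of all these genes 0 had an adjusted p under 0.05 by limma, and 1, CD14, had an unadjusted p under 0.05. Their part in the values of SOX9, KLF4 and CD24 was not tested.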

How the data were processed

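The deposited table holds log2 signals per transcript cluster, which the authors made with Partek Genomics Suite 6.6. Its RMA steps were a background correction, a quantile normalization over all arrays and a median polish. The methods also name a filtering step that they do not describe. Gene symbols came from the platform table (16098 transcript clusters with 1 symbol, 0 with several, 37519 unnamed here). All 53617 transcript clusters entered 1 linear model fit in limma 3.58.1 under R 4.3.3. Its moderated test was two-sided, p was adjusted by Benjamini-Hochberg over all of them, and the threshold was 0.05. The fit was tested on simulated data. Sequences came from RefSeq tables of GRCh38.p14, in which 9 members had a promoter window.

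The members and lists were chosen with earlier results of these data known. Named genes are all measured members, up to 4 list members with the smallest p, any past 1.5-fold, marker genes of highest and lowest signal, and the 3 genes most correlated with SOX9, KLF4 and CD24. SNAI2, MYC, POU5F1, SOX2, SOX4, KLF5, CD44, LGR5, ZNRF3 and further cell type markers were named for their role and after values were seen. The alternatives were an intensity trend, the methods' t-test (unpaired Student test), the replicate number as a block, other scalings, filters, array weights, and leaving out each array.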

Additional observations from a re-analysis of the deposited data

How the results depend on the processing

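SOX9, KLF4 and CD24 kept their direction in all 14 alternative settings, with log2 fold changes of 0.43 to 0.84, 0.31 to 0.41 and −0.85 to −0.67. As the groups of these genes do not overlap, leaving out or weighting arrays could not reverse their direction. Settings that change only the test leave the estimate as it was, so the kept direction is no evidence of robustness. No setting brought a member to an adjusted p under 0.05 (lowest 0.0797, CD24 with array weights, and highest 0.999). The number of changed transcript clusters was 2 in limma, 0 with the methods' t-test, 0 with the replicate block, 1 after cyclic loess, 5 with dim transcript clusters left out, 25 with array weights and 0 with any array left out. The number of members higher at the 1.5-fold threshold was 0 with the methods' t-test and with array weights, and 0 to 1 with an array left out. NES had −0.013 with array medians centred, −0.019 after cyclic loess and −0.019 with array weights, and −0.15 to 0.13 with an array left out. PROM1 had −0.46 with array weights and −0.23 to 0.43 with an array left out. Array weights put 7.91 on control replicate 3 against 0.366 and 0.514 on the other control arrays, and the cause of the changes was not tested. The deviations of same-numbered arrays from their group means correlated at −0.47, −0.0018 and −0.081. With 3 arrays per group these values cannot decide whether the replicate numbers pair the arrays. With the replicate block, SOX9, KLF4 and CD24 had limma adjusted p = 0.947 each. As each measured member has 1 transcript cluster, averaging over transcript clusters gave no other value, and PROM1 has none with dim ones left out.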

Other observations

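Luminal and basal identity genes were measured beside the stem cell markers. Of the luminal list 7 of 8 genes have a symbol here, with a median log2 fold change of 0.066 and 0 at an unadjusted p under 0.05 from limma. GATA3, a luminal transcription factor, had the highest mean signal among them (6.63) and a log2 fold change of 0.066, and AGR2 the lowest (2.90). The luminal keratin KRT19 had −0.44 with a control SD of 0.70 (limma adjusted p = 0.877). Of the basal list 3 of 5 were measured, and EGFR, a growth factor receptor common in triple negative BC, had a mean signal of 9.89 and a log2 fold change of 0.046, while KRT14 had −0.27 and KRT5 −0.095. Of the epithelial junction genes 5 of 6 were measured, from a mean signal of 3.87 for ESRP1 to 6.57 for CLDN3, and their median log2 fold change was −0.030.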
